A study of Mus with 6 samples.

Results

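The genes described here are 10 transcripts best known from blood cells, measured by RNA sequencing in mouse brain tissue labelled as basolateral amygdala. They were chosen by gene symbol from a list of 5 red cell genes (Hba-a1, Hba-a2, Hbb-bs, Hbb-bt and Alas2) and 5 neutrophil genes (S100a8, S100a9, Ngp, Camp and Lcn2), and all 10 were found among the 54532 genes of the deposited table. The libraries came from 3 mice labelled CNTNAP4-KO (KO) and 3 labelled wild type (WT), all labelled male, with total RNA taken from the tissue. CNTNAP4 is a cell adhesion protein of neurons, related to the neurexins. The sources used here give no age, strain, form of knockout allele or perfusion of the brain, and the labels of these 6 samples name no treatment.

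Adult haemoglobin is built from alpha and beta globin chains around haem, and red cells that have lost their nucleus still carry globin transcripts. Neutrophils are short-lived white cells whose cytoplasm and granules are filled with antimicrobial proteins, among them the products of the neutrophil genes named above. In brain tissue both sets of transcripts can come from blood left in vessels, whereas globins are also known from some neurons and glia, and Lcn2 from reactive astrocytes, endothelium and choroid plexus. In bulk tissue, fewer cells of a type and less RNA per cell cannot be told apart.

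The libraries held 17647556 to 18936386 reads in genes in KO and 17789079 to 20813211 in WT, and Cntnap4 measured 1.00 to 1.61 FPKM in KO and 2.03 to 4.91 FPKM in WT. FPKM is the number of fragments scaled to gene length and library size. KO replicate 1 went against its label of male, with 43.0 FPKM of Xist, which is transcribed from the inactive X chromosome of females, and 0 reads on 4 Y-linked genes. The other 5 libraries had Xist at 0.0346 FPKM or less and 2831 to 4001 reads on those genes. The excitatory neuron gene Slc17a7, a marker of basolateral amygdala, measured 21.4, 94.3 and 19.1 FPKM in KO replicates 1 to 3 and 5.37 to 6.42 FPKM in WT. The hypothalamic gene Avp stood at 894, 2.20 and 325 FPKM in KO replicates 1 to 3 and 350 to 783 FPKM in WT. Of 11 listed brain region markers 7 were higher and 4 lower in KO in log2 value (median 0.59, none called). All KO values were above all WT values for 7, against 11.8% of all tested genes, and below them for 1, against 10.8%. The median is that of Rspo2, also among those 7. Rspo2 reached the tested mean of 0.5 FPKM only through KO (0.915 FPKM, against 0.438 FPKM in WT), so the median supports no direction. KO replicate 2 stood furthest apart, and the part of the dissected region in the results that follow was not tested. Values without single libraries are given beside the results they move.

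Every red cell gene and 4 of the 5 neutrophil genes had a higher mean FPKM in KO libraries than in WT libraries. None of the 10 differences passed the test over all genes (limma-trend, Benjamini-Hochberg adjusted p from 0.200 for S100a8 to 0.824 for Lcn2), and 6 had an unadjusted p under 0.05, all higher in KO. Over the 16155 genes tested, 0.0124% passed the adjusted threshold of 0.05, with 0.00619% higher and 0.00619% lower in KO. An unadjusted p under 0.05 was reached by 8.36% that were higher and 6.85% that were lower in KO. All 10 log2 differences were above 0, against 51.5% of all tested genes. With voom on reads recovered from the FPKM values, 0 of the 10 passed as well. The KO and WT values did not overlap for 5 of the 10, all higher in KO (Hba-a2, Hbb-bs, S100a8, S100a9 and Ngp), against 11.8% of all tested genes (10.8% had all KO values below all WT values). A log2 difference of at least 1 was reached by 5 of the 10, against 0.693% of all tested genes. The 10 genes were chosen with earlier results of these data known, and some are close copies of each other. These counts therefore describe the 10 genes and are no test of them as a list. All 10 passed the filter of a mean of 0.5 FPKM over the 6 libraries, and Camp would not have passed it on its WT mean alone.

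**Figure D1:**
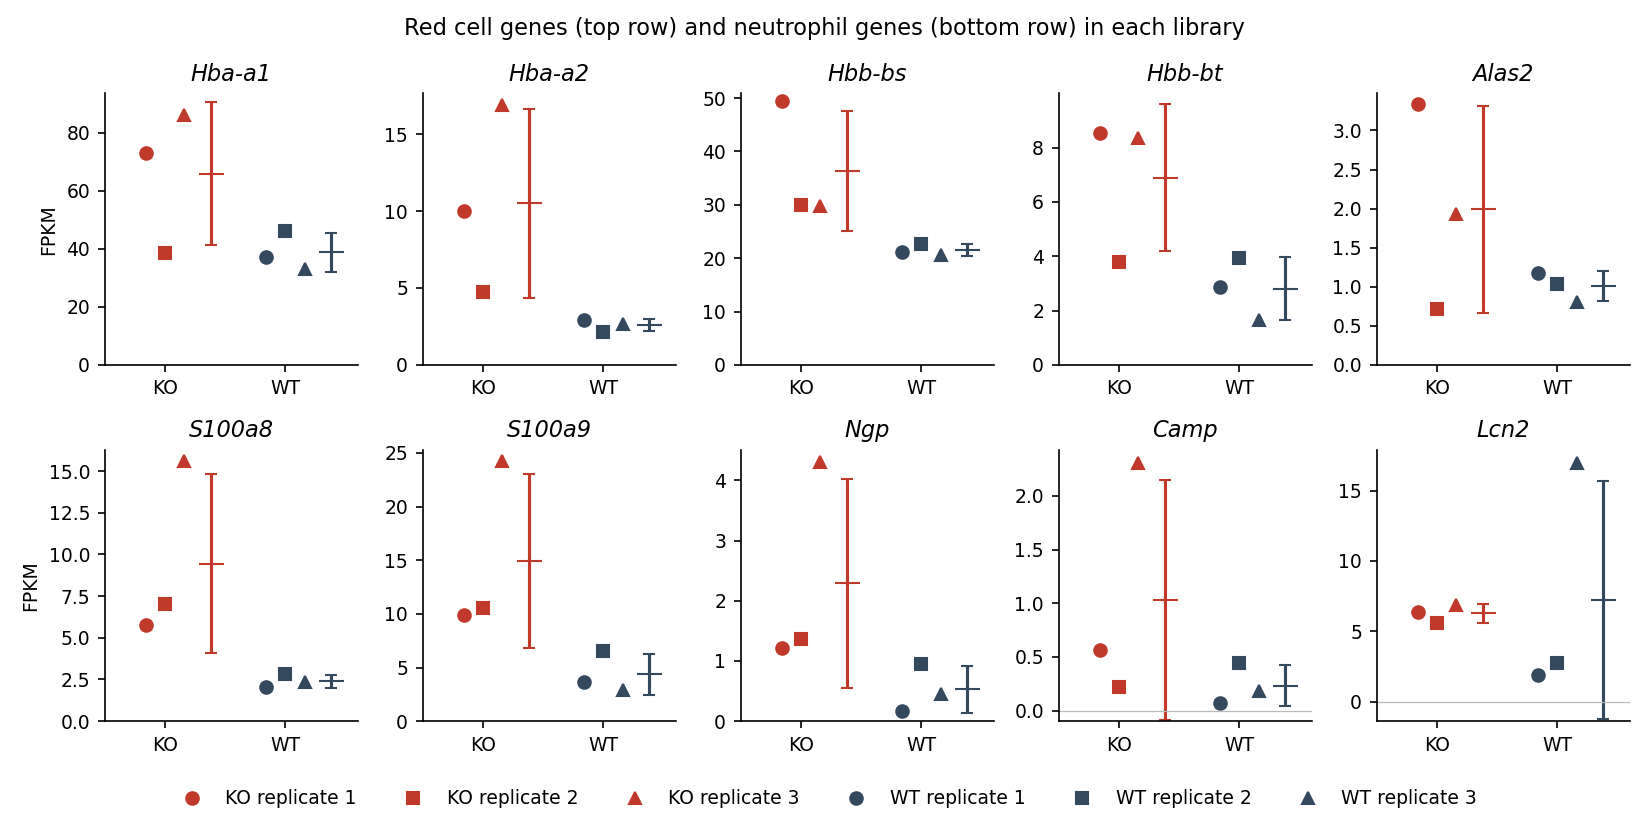
FPKM (linear axes, one scale per gene) of the 5 red cell genes in the top row and the 5 neutrophil genes in the bottom row, with KO left of WT. Symbols are the 3 libraries of each group by replicate number, and the bars beside them are the mean ± SD (n = 3). KO replicate 3 is the highest library for Hba-a1, Hba-a2, S100a8, S100a9, Ngp and Camp. KO replicate 1 is the highest for Hbb-bs, Hbb-bt and Alas2, and WT replicate 3 for Lcn2 at 17.0 FPKM.

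Among the red cell genes, Hba-a1 (ENSMUSG00000069919, GRCm38, chromosome 11, 32283511 to 32284465, plus strand) encodes adult alpha globin and had the highest level of the 10. Levels were 73.1, 38.4 and 86.1 FPKM in KO replicates 1 to 3, against 37.1, 46.3 and 33.1 FPKM in WT replicates 1 to 3. KO replicates 1 and 3 lay above every WT library, while KO replicate 2 lay within the WT range, so the groups overlapped. The means were 65.9 ± 24.7 FPKM in KO and 38.8 ± 6.74 FPKM in WT (SD, n = 3 each), with a log2 difference of 0.69 ± 0.30 (SE, limma adjusted p = 0.340). Leaving out KO replicate 3 gave 0.46, and leaving out KO replicate 2 gave 1.04. Each log2 difference here is KO minus WT after adding 0.5 to the FPKM, and this makes the change of genes of low level look smaller than it is.

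Hba-a2 (ENSMUSG00000069917, chromosome 11, 32296489 to 32297298, plus strand), the second adult alpha globin gene, lies 12023 bases downstream of Hba-a1. Its levels were 9.97, 4.72 and 16.9 FPKM in KO replicates 1 to 3, against 2.93, 2.17 and 2.69 FPKM in WT replicates 1 to 3. Every KO library was above every WT library. The log2 difference was 1.68 ± 0.40 (limma adjusted p = 0.205), with a two-sided exact permutation p of 0.1, below which 3 against 3 libraries cannot go. The coding sequences of Hba-a1 and Hba-a2 are near-identical, so how reads were divided between them is uncertain. The ratio of Hba-a1 to Hba-a2, in FPKM, was 7.34, 8.13 and 5.09 in KO replicates 1 to 3, against 12.7, 21.4 and 12.3 in WT replicates 1 to 3. With the reads of both genes summed and divided by their mean length, the log2 difference was 0.78 (limma adjusted p = 0.309), so the larger difference of Hba-a2 was not that of alpha globin reads in total.

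Hbb-bs (ENSMUSG00000052305, chromosome 7, 103826534 to 103828096, minus strand) had the higher level of the adult beta globin genes. It stood at 49.4, 29.9 and 29.7 FPKM in KO replicates 1 to 3, against 21.2, 22.7 and 20.6 FPKM in WT replicates 1 to 3. The WT libraries lay close together and all KO libraries were above them. The log2 difference was 0.70 ± 0.19 (limma adjusted p = 0.223, exact two-sided permutation p = 0.1), and it was 0.46 without KO replicate 1. The paralog Hbb-bt (ENSMUSG00000073940, chromosome 7, 103812524 to 103813996, minus strand) lies 12.5 kb from it. Hbb-bt measured 8.55, 3.77 and 8.35 FPKM in KO replicates 1 to 3, against 2.85, 3.95 and 1.64 FPKM in WT replicates 1 to 3. As with Hba-a1, KO replicates 1 and 3 were above all WT libraries and KO replicate 2 lay within the WT range. Its log2 difference was 1.14 ± 0.37 (limma adjusted p = 0.258). The beta globin genes are also close copies, and summed in the same way they gave a log2 difference of 0.78 (limma adjusted p = 0.209).

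Alas2 (ENSMUSG00000025270, X chromosome, 150547375 to 150570638, plus strand) encodes the red cell form of the first enzyme of haem synthesis. It was low in all libraries, at 3.34, 0.713 and 1.93 FPKM in KO replicates 1 to 3, against 1.17, 1.04 and 0.804 FPKM in WT replicates 1 to 3. The KO libraries held both the highest and the lowest value. The highest was KO replicate 1, the library with Xist and no reads on the Y-linked genes, and whether its sex bears on this X-linked gene was not tested. The log2 difference of 0.58 ± 0.39 (limma adjusted p = 0.517) became 0.20 without KO replicate 1 and 1.03 without KO replicate 2.

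S100a8 and S100a9 encode calgranulins A and B, calcium-binding proteins that pair as calprotectin and are among the most abundant proteins of neutrophil cytoplasm. S100a8 (ENSMUSG00000056054, chromosome 3, 90668978 to 90670035, plus strand) measured 5.75, 7.01 and 15.6 FPKM in KO replicates 1 to 3, against 2.03, 2.80 and 2.32 FPKM in WT replicates 1 to 3. All KO libraries were above all WT libraries, and KO replicate 3 was the highest. The log2 difference of 1.67 ± 0.34 had a limma p of 0.002 (limma adjusted p = 0.200), the smallest among these genes and at rank 160 of the 16155 tested. It was 1.26 without KO replicate 3. S100a9 (ENSMUSG00000056071, chromosome 3, 90692632 to 90695721, minus strand) lies 22.6 kb from S100a8. It stood at 9.88, 10.5 and 24.2 FPKM in KO replicates 1 to 3, against 3.63, 6.50 and 2.91 FPKM in WT replicates 1 to 3. Again KO replicate 3 was highest and the groups did not overlap. The log2 difference was 1.61 ± 0.40 (limma adjusted p = 0.207), and it was 1.21 without KO replicate 3. S100a9 exceeded S100a8 in each library (ratio of FPKM 1.72, 1.5 and 1.55 in KO replicates 1 to 3, against 1.79, 2.32 and 1.25 in WT replicates 1 to 3).

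The granule genes Ngp and Camp encode neutrophilic granule protein and the cathelicidin antimicrobial peptide, which are related in sequence and stored in secondary granules. Ngp (ENSMUSG00000032484, chromosome 9, 110419747 to 110423012, plus strand) measured 1.22, 1.36 and 4.30 FPKM in KO replicates 1 to 3, against 0.177, 0.956 and 0.452 FPKM in WT replicates 1 to 3. These levels rest on 28, 30 and 93 reads in KO and 4, 21 and 12 reads in WT. The groups did not overlap, although KO replicate 1 and WT replicate 2 were close, with 95% Poisson intervals of 0.810 to 1.76 FPKM in KO replicate 1 and 0.592 to 1.46 FPKM in WT replicate 2. The log2 difference was 1.34 ± 0.46 (limma adjusted p = 0.270), and it was 0.87 without KO replicate 3. Camp (ENSMUSG00000038357, chromosome 9, 109847379 to 109849617, minus strand) had 8, 3 and 31 reads in KO replicates 1 to 3, against 1, 6 and 3 reads in WT replicates 1 to 3. That corresponds to 0.561, 0.219 and 2.31 FPKM in KO and 0.0715, 0.440 and 0.182 FPKM in WT, with overlap between the groups. Its log2 difference was 0.85 ± 0.50 (limma adjusted p = 0.459), and without KO replicate 3 the gene fell below the filter.

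Lcn2 (ENSMUSG00000026822, chromosome 2, 32384633 to 32388252, minus strand) encodes lipocalin 2, a siderophore-binding protein of neutrophil granules, and did not follow the other neutrophil genes. It stood at 6.37, 5.56 and 6.89 FPKM in KO replicates 1 to 3, against 1.90, 2.73 and 17.0 FPKM in WT replicates 1 to 3. The KO libraries were alike, and the highest and the lowest levels were both in WT. The mean was 6.27 ± 0.667 FPKM in KO and 7.22 ± 8.49 FPKM in WT, whereas the log2 difference was positive at 0.39 ± 0.69 (limma adjusted p = 0.824), so the sign depended on the scale. Without WT replicate 3 the log2 difference was 1.28 (limma adjusted p = 0.252), without WT replicate 2 it was 0.06, and without WT replicate 1 it was -0.16. In WT replicate 3, whose S100a8, S100a9, Ngp and Camp lay within the range of the other WT libraries or below it, other genes also had their highest value. WT replicate 3 was the highest library for 8 of the 18 endothelial, 6 of the 16 lymphocyte and 5 of the 12 microglial genes listed. The same held for 5 of the 13 haem synthesis and 5 of the 12 haem clearance genes. The share over all genes was not computed, so these counts single out no list. Among monocyte genes the count was 3 of 11, and among genes of mature neutrophils 0 of 24. It was 5 of the 14 reactive astrocyte and acute phase genes and 4 of the 18 granule genes. Examples are Steap4, a metalloreductase of the acute phase response, with 54 reads against 29 to 33 in KO and 5 to 11 in the other WT libraries, and the granule gene Chil3, with 41 reads against 9 to 28 in KO and 4 to 5 in the other WT libraries. Steap4 and Chil3 were named after their values were seen, and their part in the Lcn2 level was not tested. WT replicate 3 also differed as a library. Mitochondrial genes held 3.42% of its reads in genes, against 5.63 to 8.14% in the other libraries. Its FPKM sum was 264447, against 291863 to 303931 in the others. The part of this in its high values was not tested.

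**Figure D2:**
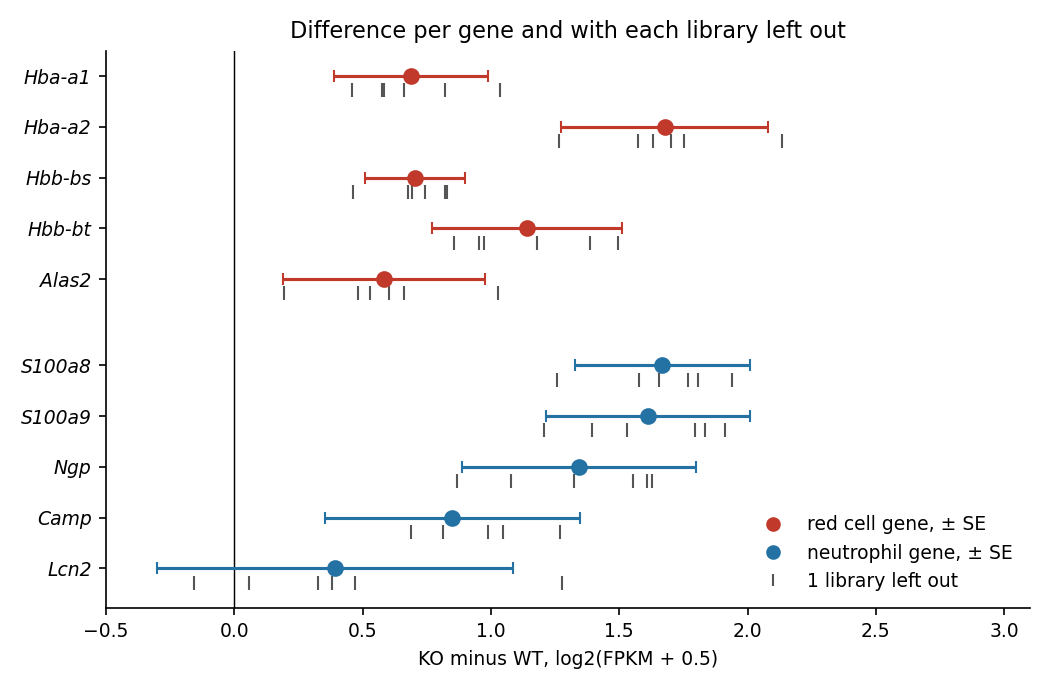
KO minus WT difference in log2(FPKM + 0.5) for each gene, with red cell genes above neutrophil genes. Circles and bars are the value from all 6 libraries ± SE, and ticks below them are the values with 1 library left out (5 ticks for Camp). Lcn2 is the gene whose ticks fall on both sides of 0, from -0.16 to 1.28.

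The red cell genes were then set against the neutrophil genes within each library. The 4 globin genes took 2068, 1085 and 1947 reads in KO replicates 1 to 3, against 929, 1065 and 993 reads in WT replicates 1 to 3. As a share of reads in genes that was 0.0109%, 0.00581% and 0.0110% in KO (95% Wilson intervals 0.0105 to 0.0114, 0.00547 to 0.00616 and 0.0106 to 0.0115%), against 0.00506%, 0.00599% and 0.00477% in WT (0.00474 to 0.00539, 0.00564 to 0.00636 and 0.00448 to 0.00508%). These intervals cover counting error only, since the reads carry no molecular identifiers. KO replicates 1 and 3 thus held about the same globin share, above all WT libraries, and KO replicate 2 lay within the WT range.

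The 5 neutrophil genes together took 522, 484 and 860 reads in KO replicates 1 to 3, against 158, 252 and 1053 reads in WT replicates 1 to 3. WT replicate 3 was the highest library on this sum, through the 970 reads of Lcn2. The mean share of reads in genes was 0.00341 ± 0.00127% in KO and 0.00245 ± 0.00228% in WT (SD, n = 3 each), a ratio of 1.39. Lcn2 was then left out, a choice made after its values were seen. S100a8, S100a9, Ngp and Camp together took 208, 220 and 540 reads in KO replicates 1 to 3, against 66, 123 and 83 reads in WT replicates 1 to 3, and the ratio of mean shares was 3.69. KO replicates 1 and 2 were close to each other on this measure although their globin shares differed, and KO replicate 3 held more than either. Per 100 globin reads there were 25.2, 44.6 and 44.2 reads of all 5 neutrophil genes in KO replicates 1 to 3, against 17.0, 23.7 and 106 in WT replicates 1 to 3, so WT replicate 3 stood above every KO library. Without Lcn2 there were 10.1, 20.3 and 27.7 neutrophil reads in KO replicates 1 to 3 (95% intervals 8.72 to 11.6, 17.5 to 23.4 and 25.2 to 30.5), against 7.10, 11.5 and 8.36 in WT replicates 1 to 3 (5.54 to 9.11, 9.59 to 13.9 and 6.68 to 10.5). KO replicate 1 lay between the WT libraries in the ratio without Lcn2, and KO replicates 2 and 3 lay above all of them. The difference between the red cell and the neutrophil genes in their KO minus WT change was not tested. Their median log2 differences were 0.70 for the 5 red cell genes and 1.34 for the 5 neutrophil genes, beside 0.007 over all tested genes. Without KO replicate 3 the medians were 0.83 for the red cell genes and 1.04 for the 4 neutrophil genes still tested (all but Camp), without KO replicate 2 they were 1.04 and 1.55 (red cell genes first), and without KO replicate 1 they were 0.57 and 1.61.

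**Figure D3:**
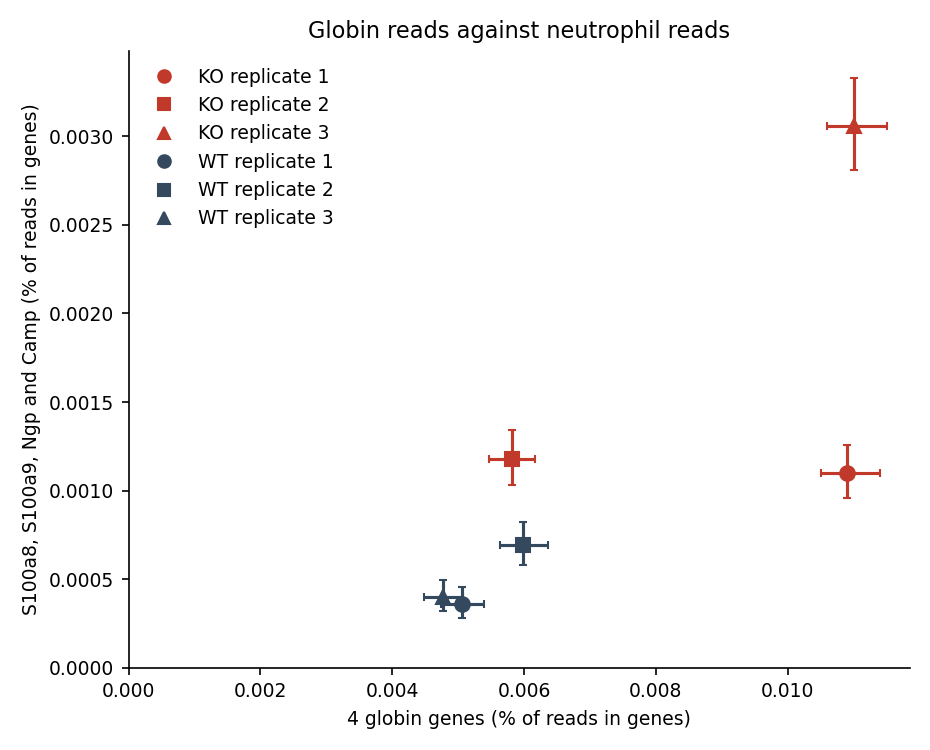
Percent of reads in genes held by the 4 globin genes (horizontal axis) and by S100a8, S100a9, Ngp and Camp (vertical axis) in each library, with 95% Wilson intervals for counting error. KO replicates 1 and 3 share a globin value of about 0.011% but have 208 and 540 reads of these neutrophil genes (Lcn2 is not included), and KO replicate 2 lies beside WT replicate 2 on the globin axis and above it on the neutrophil axis.

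Beside Poisson counting error alone, the spread between the KO libraries was larger for 10 of the 10 genes and that between the WT libraries for 7, the others being Hba-a2, Hbb-bs and S100a8. Hba-a1 had a coefficient of variation of 37.5% in KO and 17.4% in WT, where Poisson counting alone gives 3.21% and 4.06% (KO first). S100a8 varied by 56.8% in KO and 16.4% in WT, beside 9.19% and 17.7% from counting (KO first), and in WT Hba-a2 varied by 15.0% beside 17.2% and Hbb-bs by 4.94% beside 5.6%. Lcn2 varied by 10.6% in KO and 118% in WT, the widest WT spread of the 10. The ratio of alpha to beta globin, in summed FPKM, was 1.44, 1.28 and 2.71 in KO replicates 1 to 3, against 1.67, 1.82 and 1.61 in WT replicates 1 to 3, so KO replicate 3 stood apart by its alpha globin.

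Correlations over the 6 libraries were computed for 12 pairs of these genes on the log2 scale, with exact two-sided permutation tests over all pairings. S100a8 and S100a9 went together most closely (Pearson r = 0.97, exact permutation p = 0.00417, adjusted over the pairs 0.05; Spearman rho = 0.94, exact p = 0.0167, adjusted 0.200). Without KO replicate 3 and WT replicate 1, the libraries farthest from the median of S100a8, r was 0.90. After subtracting each group's mean it was 0.88 (exact permutation p = 0.0125, adjusted 0.0750). Ngp and Camp had r = 0.92 (exact permutation p = 0.0125, adjusted 0.0750; rho = 0.83, exact p = 0.0583, adjusted 0.233), but r was 0.47 without KO replicate 3 and WT replicate 1, so the relation rested on those libraries.

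Hbb-bs and its paralog Hbb-bt had r = 0.81 (exact permutation p = 0.05, adjusted 0.175; rho = 0.83, exact p = 0.0583, adjusted 0.233), and r was 0.67 without KO replicate 1 and WT replicate 3. Between red cell and neutrophil genes, Hbb-bs with S100a9 had r = 0.59 (exact permutation p = 0.225, adjusted 0.344; rho = 0.77, exact p = 0.103, adjusted 0.233). Within the groups the sign of that relation turned, with r = -0.34 after subtracting each group's mean (exact permutation p = 0.542, adjusted 0.813). Without KO replicate 1 and WT replicate 3 the r over libraries was 0.88, and without KO replicates 1 and 3 the r within groups was 0.75, so the sign within groups rested on those libraries. Hbb-bs with S100a8 turned in the same way, with r = 0.57 over all libraries (exact permutation p = 0.229, adjusted 0.344; rho = 0.71, exact p = 0.136, adjusted 0.233) and r = -0.60 within the groups (exact permutation p = 0.215, adjusted 0.645). The same libraries left out gave 0.92 and 0.85. Hbb-bs was the only red cell gene paired with neutrophil genes, and none of those pairs passed. Over all libraries Hbb-bt (r = 0.864), Hba-a2 (0.860) and Hba-a1 (0.835) were more like S100a9 than Hbb-bs was, and Alas2 (0.476) was less like it. Those relations were not tested.

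By likeness of profile over the 6 libraries (Pearson r on the log2 scale, among 12258 named genes of at least 1 FPKM outside the 10), the genes closest to Hbb-bs were Gpi1 (0.996), Rasl11b (0.985), Parp3 (0.985), Fkbp5 (0.984) and Tmem138 (0.984). Gpi1, a glycolytic enzyme gene, measured 94.3, 81.2 and 82.4 FPKM in KO replicates 1 to 3, against 74.4, 74.3 and 73.4 FPKM in WT replicates 1 to 3. Fkbp5, a glucocorticoid-induced co-chaperone gene, stood at 11.2, 7.27 and 7.55 FPKM in KO, against 5.07, 4.98 and 5.26 FPKM in WT. Hbb-bt, the closest of the 10 to Hbb-bs, had 469 other genes above it in that order. The genes closest to S100a9 were Ndufc1 (0.998), Tpi-rs11 (0.989), Ei24 (0.988), Snrnp27 (0.983) and Ndufb1-ps (0.980). Among the members, 15 genes stood above S100a8 (0.968) and 19 above Ngp (0.960) in likeness to S100a9. Camp (0.861, 207 genes above it) was no nearer than the globins Hbb-bt (0.864, 202 above) and Hba-a2 (0.860, 214 above), and Lcn2 had 6120 genes above it (0.019). None of these 10 closest genes passed the KO against WT test (limma adjusted p from 0.187 to 0.298). Tpi-rs11 and Ndufb1-ps are named as related or pseudogene copies, so their reads are uncertain.

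Other genes of the red cell lineage were close to 0. Of 20 listed red cell precursor genes 16 were matched, 15 were above 0 in some library, and 1 reached the test, Tal1, which endothelium also expresses (log2 0.03, limma adjusted p = 0.954). Of the 15, 9 had a higher and 6 a lower mean FPKM in KO, where 48.6% of all genes above 0 had a higher mean. The lower ones included Klf1, the erythroid transcription factor, with 2, 4 and 5 reads in KO replicates 1 to 3, against 6, 6 and 1 reads in WT replicates 1 to 3. The summed level of the 16 was 1.33 to 1.82 FPKM in KO and 1.19 to 1.63 FPKM in WT. The anion exchanger of the red cell membrane, Slc4a1, had 5, 0 and 6 reads in KO replicates 1 to 3, against 1, 1 and 0 reads in WT replicates 1 to 3. Epb42, which encodes a protein of the red cell membrane skeleton, was at 0 in all libraries. Slc4a1, Klf1 and Epb42 were named after their values were seen.

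Of the 3 other globin genes tested, 1 was higher and 2 were lower in KO in log2 value (median -0.45, none called). The median is that of Hbq1a, which had 3 to 14 reads per library. Hbq1a passed the filter only through its WT mean (0.787 FPKM, against 0.421 FPKM in KO), so the median supports no direction. The embryonic globin genes Hba-x and Hbb-bh1 were at 0 in every library, and Hbb-y had 0, 0 and 5 reads in KO replicates 1 to 3, against 0, 1 and 2 reads in WT replicates 1 to 3. Cygb, which encodes cytoglobin of fibroblasts and some neurons, measured 53.9 ± 5.24 FPKM in KO and 44.5 ± 5.42 FPKM in WT (log2 0.28, limma adjusted p = 0.324). Ngb, neuroglobin, stood at 11.6, 2.21 and 11.5 FPKM in KO replicates 1 to 3, against 9.06, 10.4 and 9.93 FPKM in WT replicates 1 to 3 (log2 -0.49, limma adjusted p = 0.709), so KO replicate 2 was again the low library. Of 12 tested genes of haem synthesis and its transport other than Alas2, 5 had a higher and 7 a lower log2 value in KO, with a median of -0.05 and none called. Tmem14c (36.0 ± 2.69 FPKM in KO and 34.6 ± 0.727 FPKM in WT) and Fech, the enzyme that inserts iron into haem (21.4 ± 0.780 FPKM in KO and 20.6 ± 0.906 FPKM in WT), had the highest levels. Alas1, the form of the enzyme in cells other than red cells, measured 8.90 ± 0.944 FPKM in KO and 7.32 ± 0.545 FPKM in WT (log2 0.26, limma adjusted p = 0.293).

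Among 19 tested genes that reticulocytes share with other cells, 12 were higher and 7 lower in log2 value, with a median of 0.10 and none called. The ubiquitin gene Ubb had a log2 difference of 0.26 (limma adjusted p = 0.286), with all KO values above all WT values. Car2, carbonic anhydrase 2 of red cells and oligodendrocytes, ran the other way at 60.7, 75.3 and 88.5 FPKM in KO replicates 1 to 3, against 94.2, 115 and 98.4 FPKM in WT replicates 1 to 3 (log2 -0.46, limma adjusted p = 0.252). In the clearance of haemoglobin and haem, 3 of 10 tested genes were higher and 7 lower, with a median of -0.06 and none called. Hmox1, the inducible haem oxygenase, was named after its values were seen. Its levels were 3.95, 3.06 and 3.09 FPKM in KO replicates 1 to 3, against 2.54, 2.35 and 2.60 FPKM in WT replicates 1 to 3 (log2 0.36, limma adjusted p = 0.252).

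Further neutrophil genes were mostly below the filter. Of 24 listed genes of mature neutrophils all were above 0 in some library, and 19 had a higher and 5 a lower mean FPKM in KO, where 48.6% of all genes above 0 had a higher mean in KO. Only 6 of the 24 reached the test, with 4 higher and 2 lower log2 values, a median of 0.26 and none called. Retnlg and Mmp9, both among the higher, passed the filter only through their KO mean, so these counts support no direction. Retnlg, resistin-like gamma of neutrophils, had 23, 24 and 19 reads in KO replicates 1 to 3, against 0, 9 and 5 reads in WT replicates 1 to 3 (log2 1.59, limma adjusted p = 0.200). Its KO libraries were alike, so KO replicate 3 did not stand out as it did for the calgranulins. The neutrophil surface gene Ly6g, named after its values were seen, had 3, 1 and 3 reads in KO and 0 in each WT library, which is too few for a fold. G0s2 (4.65 ± 0.665 FPKM in KO and 5.31 ± 1.18 FPKM in WT) and Csf3r (2.55 ± 0.0790 FPKM in KO and 2.68 ± 0.179 FPKM in WT) had the highest levels of this list, and both are expressed by other cells too.

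Of 18 listed granule genes 15 had a higher and 3 a lower mean FPKM in KO, where 48.6% of all genes above 0 had a higher mean. Several of the 15, Mpo and Elane among them, had 5 reads or fewer in every library. The 5 tested were all higher in log2 value, against 51.5% of all tested genes, with a median of 0.36 and none called. Lyz2, the highest of the list, measured 20.0, 16.8 and 19.8 FPKM in KO replicates 1 to 3, against 12.2, 13.4 and 24.0 FPKM in WT replicates 1 to 3. Chil3, at the middle of the 5, passed the filter only through its KO mean. Pglyrp1, a peptidoglycan-binding granule protein, measured 9.12, 5.08 and 7.53 FPKM in KO replicates 1 to 3, against 4.19, 5.05 and 5.58 FPKM in WT replicates 1 to 3 (log2 0.48, limma adjusted p = 0.331). Ltf, lactoferrin, which shares secondary granules with Lcn2 and was named after its values were seen, had 17, 21 and 54 reads in KO and 2, 14 and 20 reads in WT. KO replicate 3 was highest for Ltf, as for Ngp and Camp. Of the genes of early neutrophil precursors, Mpo, Elane and Ctsg stayed at 0.172 FPKM or less in every library, and Prtn3 stood at 1.35, 1.47 and 1.01 FPKM in KO replicates 1 to 3, against 1.25, 1.28 and 1.14 FPKM in WT replicates 1 to 3.

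Markers of other cells did not follow a single order. Summed platelet genes stood at 3.84 to 5.24 FPKM in KO and 3.30 to 5.36 FPKM in WT, with 3 tested genes, a median log2 difference of 0.09 and none called. Summed lymphocyte genes stood at 31.0 to 47.4 FPKM in KO and 29.0 to 70.4 FPKM in WT (5 tested, median 0.18, none called), with Igkc, the immunoglobulin kappa constant gene, at 1.7, 10.4 and 31.1 FPKM in KO replicates 1 to 3, against 11.8, 20.3 and 54.9 FPKM in WT replicates 1 to 3. Cd4, a T helper cell gene that microglia and monocytes can also express, measured 10.1, 12.7 and 7.64 FPKM in KO replicates 1 to 3, against 6.82, 4.32 and 4.14 FPKM in WT replicates 1 to 3 (log2 0.93, limma adjusted p = 0.207), without overlap. Of the 16 lymphocyte genes 6 had a higher and 10 a lower mean FPKM in KO. Monocyte genes summed to 27.4 to 28.9 FPKM in KO and 19.4 to 25.6 FPKM in WT without overlap. All 5 tested were higher in log2 value, against 51.5% of all tested genes (median 0.30, none called). Nr4a1, also an immediate early gene of neurons (log2 0.52, limma adjusted p = 0.229), Fn1 and Ace, which other cells express too, made up most of that sum. Of the 10 monocyte genes above 0 in some library 7 had a higher and 3 a lower mean in KO, and the lower ones included Ccr2, the chemokine receptor of inflammatory monocytes, at 0.144 FPKM in KO and 0.204 FPKM in WT on average.

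Endothelial genes, which report vessel content, were not higher in KO as a list. Of 18 tested, 10 were higher and 8 lower in log2 value, with a median of 0.01 and none called, and their sum was 233 to 303 FPKM in KO and 236 to 305 FPKM in WT. KO replicate 2, with the lowest globin share of the KO libraries, had the lowest endothelial sum, at 233 FPKM beside 236 FPKM in WT replicate 1. WT replicate 3, with the lowest globin share of all libraries (0.00477%), had the highest endothelial sum, at 305 FPKM. KO replicates 1 and 3, with globin shares of 0.0109% and 0.0110%, had endothelial sums of 303 and 278 FPKM. WT replicates 1 and 2, with 0.00506% and 0.00599%, had 236 and 262 FPKM. WT replicate 3 was thus the library furthest from a common order, and the relation of globin share to endothelial sum was not tested. Of 12 microglial genes 11 were below 0 in log2 difference, where 51.5% of all tested genes were above 0. Their median was -0.23 and none was called (sum 260 to 335 FPKM in KO and 311 to 341 FPKM in WT). For Lcn2, genes of reactive astrocytes and the acute phase had 5 higher and 5 lower of 10 tested (median 0.01, none called), with Gfap at 53.0 ± 13.1 FPKM in KO and 62.4 ± 2.08 FPKM in WT. Choroid plexus genes summed to 9.49 to 28.3 FPKM in KO and 35.3 to 39.5 FPKM in WT, without overlap, and of the 10 listed 4 had a higher and 6 a lower mean in KO. Of the 3 tested, Kl and Clic6 had log2 differences of 0.03 and 0.10 (none called), while Ttr stood at 4.01, 0.634 and 18.7 FPKM in KO replicates 1 to 3, against 26.9, 29.6 and 24.8 FPKM in WT replicates 1 to 3. The part of these cells in the levels of the 10 genes was not tested.

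**Figure D4:**
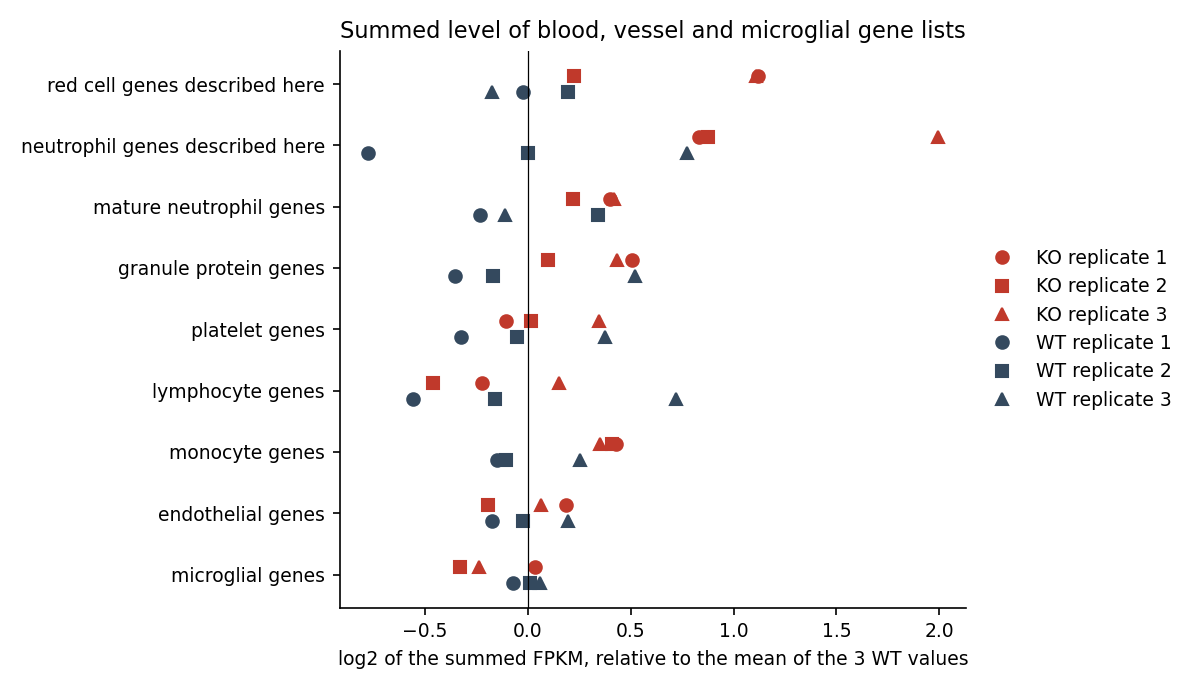
Summed FPKM of each gene list, as log2 relative to the mean of the 3 WT values, for each library. The red cell genes of KO replicates 1 and 3 and the neutrophil genes of KO replicate 3 lie furthest right, and the endothelial sums of KO (233 to 303 FPKM) and WT (236 to 305 FPKM) overlap.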

How the data were processed

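RNA sequencing of 6 mouse libraries, 3 KO and 3 WT, was analysed from 1 deposited table. The authors deposited FPKM values per gene with gene length and coordinates, on GRCm38 (mm10) per the submitters' processing notes. Libraries were made from total RNA with a SMARTer mRNA kit, per the labels' protocols. Aligner, counter, annotation release and use of strand: not given in the sources used here. Reads of near-identical copies are therefore uncertain. FPKM times length gave whole multiples of 1 step per library (100% of nonzero values within 0.01 of a whole read), and these steps were taken as reads. KO and WT were compared by limma (3.58.1, in R 4.3.3), with the trend and robust settings, on log2(FPKM + 0.5) of genes averaging 0.5 FPKM or more, with Benjamini-Hochberg adjustment at 0.05. It was checked on simulated reads. Permutation tests used scipy 1.17.1. The labels number the mice within each group and give no litter, cage or batch, so p-values measure only the spread between these samples.

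The members and the 17 further gene lists were chosen with earlier results of these data known. Named genes are the 10 members, the 5 genes closest in profile to Hbb-bs and to S100a9, and from each list up to 4 members of highest mean among those of at least 0.5 FPKM. Others named are said to be chosen after their values were seen, or are Cntnap4, Xist, Slc17a7, Alas1, Hba-x, Hbb-bh1, Mpo, Elane, Ctsg, Tlr4, Ager, S100a4, S100pbp, Hbb-y, Ccr2, Mmp9 and Rspo2, also chosen so. Ahsp (also listed as Eraf), Hbb-b1 and Hbb-b2 were not analysed here. Alternatives were other pseudocounts, filters, scalings, weights and fits, protein-coding genes alone, summed globin copies, a replicate block and leaving out each library. No column of sample values was left unmatched.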

Additional observations from a re-analysis of the deposited data

How the results depend on the processing

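None of the 10 genes passed the adjusted threshold under any of the 19 alternatives in which it was tested, and the lowest adjusted p was 0.106 (Hba-a2 and S100a8 with array quality weights, limma). Every log2 difference kept its sign under every alternative except that of Lcn2, which ran from -0.16 without WT replicate 1 to 1.28 without WT replicate 3. The red cell median stayed between 0.57 and 1.04. The neutrophil median of 1.34 became 1.71 with a pseudocount of 0.1, 1.02 with a pseudocount of 1, 1.61 among the 3 neutrophil genes of at least 5 FPKM, 1.68 with voom and 1.68 with array quality weights, and ran from 1.04 (without KO replicate 3 and so without Camp) to 1.63 with 1 library left out. The number of genes called over the whole table, 2, became 0 with a pseudocount of 0.1, no filter, a filter at 5 FPKM, voom, the replicate block or protein-coding genes only, 1 with quantile normalization and 5 with an equal FPKM sum. With 1 library left out it ran from 0 to 9, and the cause was not tested.

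Same-numbered libraries did not deviate together (correlations of -0.09, -0.14 and -0.07 for replicates 1 to 3), so the replicate numbers were not taken as pairs, and with the replicate block 0 genes were called, none of the 10 among them (adjusted p from 0.349 to 0.805, limma). On linear FPKM the correlation of S100a8 with S100a9 was 0.99 (exact permutation, adjusted p = 0.0334), and those of Lcn2 turned sign to -0.11 with Hbb-bs and -0.04 with S100a8. After subtracting group means, Hbb-bs had r of -0.60 with S100a8, -0.34 with S100a9, -0.40 with Ngp, -0.19 with Camp and -0.09 with Lcn2. Ratios of KO to WT read shares did not move beyond the replicate spread when reads in nuclear protein-coding genes were the total. The neutrophil ratio of 1.39 was 3.69 without Lcn2, an alternative chosen after seeing the data. Camp, with 1 to 31 reads per library, and Ngp, with 4 to 93, are limited by counting.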

Other observations

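The receptors of these proteins were read in the same libraries. Slc22a17, a receptor for lipocalin 2, measured 152, 144 and 154 FPKM in KO replicates 1 to 3, against 141, 132 and 153 FPKM in WT replicates 1 to 3 (log2 0.08, limma adjusted p = 0.681). Bsg, which binds S100A9, stood at 301, 261 and 298 FPKM in KO, against 278, 270 and 313 FPKM in WT. Tlr4 and Ager, the receptors most often named for S100a8 and S100a9, were at 0.181 to 0.447 FPKM in KO and 0.0759 to 0.538 FPKM in WT, below the filter. Of the 7 listed receptor genes 3 reached the test, 1 higher and 2 lower in log2 value, and none was called.

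Other S100 genes were read in the same libraries. Of 8 tested genes listed for the family other than S100a8 and S100a9, 6 were lower and 2 higher in KO in log2 value, with a median of -0.07 and none called. The higher ones were S100a6 and S100pbp, and S100pbp encodes a protein that binds an S100 protein and is not of the family itself. S100b, the astrocyte member, measured 104, 73.3 and 97.4 FPKM in KO replicates 1 to 3, against 91.6, 124 and 126 FPKM in WT replicates 1 to 3. S100a6, from the same gene cluster as the calgranulins, was named after its values were seen and stood at 7.74, 8.49 and 9.62 FPKM in KO replicates 1 to 3, against 5.11, 6.39 and 7.10 FPKM in WT replicates 1 to 3 (log2 0.45, limma adjusted p = 0.230), with no overlap between the groups. S100a4, abundant in monocytes and fibroblasts, was listed at 0 in every library.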
